A study of Mus musculus with 12 samples.

Results

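The stable S45Y form of β-catenin was compared with eGFP by RNA-seq in small cholangiocyte cells (SMCCs), an immortalized line of mouse bile duct epithelium. The genes described here are all those with enough counts to be tested in the 3 S45Y and 3 eGFP libraries, which were 1819 of the 24421 gene symbols in the count table. They were chosen by edgeR's filterByExpr function, which asks for about 10 counts in as many libraries as 1 group holds, whichever group those libraries belong to. The series also holds 6 libraries of the same line after siRNA transfection, so that it has 12 libraries in all, and every library comes from this 1 cell line. Both groups described here received a plasmid by lipofection and were harvested 48 hr later, and the S45Y group differs from the eGFP group in the protein that the plasmid encodes. The labels number the libraries of each group 1 to 3 without saying whether they came from separate cultures, so the p-values measure the spread between these libraries, which may be technical.

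β-catenin, the product of Ctnnb1, links cadherins to the actin cytoskeleton at adherens junctions and is also the transcriptional effector of canonical Wnt signalling. Without a Wnt ligand, a complex of Axin, Apc, casein kinase and Gsk3 phosphorylates serines and a threonine near its N-terminus, and the marked protein is degraded. Substitution of one of these residues, such as the serine at position 45, lets the protein accumulate, enter the nucleus and bind Tcf and Lef factors at target genes such as Axin2 and Lgr5. In bile duct epithelium the protein has also been studied as a partner of the NF-κB subunit p65.

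The wild-type mouse sequence around the mutated residue is shown because it marks the residue that the S45Y form replaces. It covers codons 31 to 51 in exon 3 of Ctnnb1 (transcript Ctnnb1-201 of GENCODE M21), on the plus strand of mm10 at chr9:120950599-120950661, and the capitals mark codon 45, a serine codon, at chr9:120950641-120950643.
Ctnnb1 codons 31 to 51: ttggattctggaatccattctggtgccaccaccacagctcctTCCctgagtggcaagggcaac
Ctnnb1 itself was counted 6, 11 and 10 times in eGFP, next to 11, 4 and 18 times in S45Y. The S45Y libraries therefore held both the lowest and the highest value, and the groups overlapped. The log2 fold change, given throughout as S45Y minus eGFP, was 0.51 (standard error 0.56, edgeR quasi-likelihood adjusted p = 0.989), with a 95% interval from -0.59 to 1.63. That interval runs from a 1.51-fold lower to a 3.10-fold higher level, so these counts do not check the label in either direction. Leaving out 1 library at a time placed the estimate between 0.09 (without S45Y replicate 3) and 0.88 (without S45Y replicate 2). The sources used here do not say which species' β-catenin sequence the plasmid carries, and its transcripts need not have been counted on this gene. The mouse gene (chromosome 9, 120929216 to 120960507 of mm10) also shares 759 exon bases with Ulk4 on the opposite strand.

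The 6 libraries were shallow, with 113481 to 122304 counts in eGFP and 91468 to 117419 in S45Y, and between 1510 and 1941 genes reached 10 counts in a library. S45Y replicate 1 was the smallest library. The tested genes held 81.3% to 82.8% of the counts of a library, and Rn45s, the precursor of ribosomal RNA, alone took 10% to 15.4%. Library pairs correlated across the tested genes with an r of 0.889 to 0.894 within eGFP, 0.864 to 0.877 within S45Y and 0.863 to 0.891 between the groups, so that the values between the groups overlapped those within them. Genes with an exon overlapped by another gene on the opposite strand held 66.1% to 68.5% of the counts. Whether the counting used the strand is not given in the sources used here, and counts on such genes may come from either partner.

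No gene was called different between S45Y and eGFP. Of 1819 genes, 0 (0%) had a Benjamini-Hochberg adjusted p below 0.05 in edgeR's quasi-likelihood test, and the smallest adjusted p was 0.469. At an unadjusted p of 0.05 or less the same test gave 107 genes (5.88%), 66 of them higher (3.63%) and 41 lower (2.25%) in S45Y. Without the count filter, over 12569 genes, the split was 176 higher and 186 lower. Every other alternative fit that gave p-values had more higher than lower genes. The split was 34 higher and 24 lower with DESeq2, and 72 higher and 68 lower without S45Y replicate 2. DESeq2's Wald test on the 1819 genes gave 0 after adjustment and 58 unadjusted. The unadjusted p-values were spread over the whole range, with 73 to 108 genes in each step of 0.05 and 107 in the first. In 198 genes (10.9%) the groups did not overlap, 113 of them higher (6.21%) and 85 lower (4.67%). The count filter itself enters here, since 19 genes reached its minimum in no eGFP library and 9 in no S45Y library. These 28 genes had to differ in order to be tested, and the groups overlapped in none of them. Of the other 1791 genes, 56 were higher and 39 lower at an unadjusted p of 0.05 or less. The median log2 fold change over all tested genes was 0.02, and single estimates ran from -1.91 to 2.0.

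**Figure D1:**
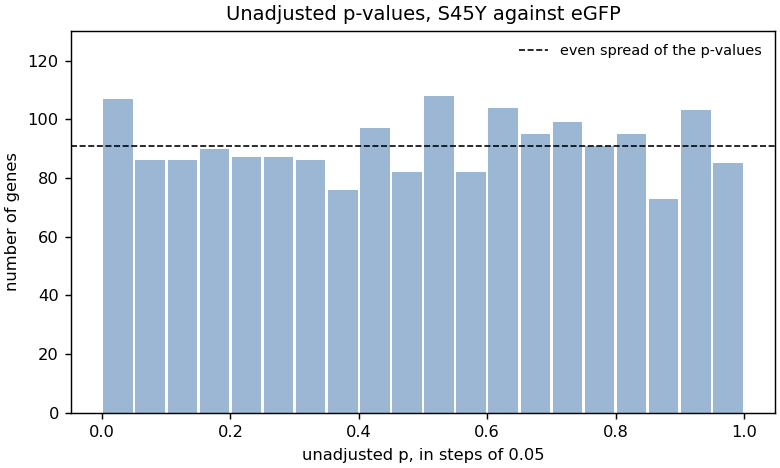
Number of tested genes (y axis) in each step of 0.05 of the unadjusted edgeR p (x axis) for S45Y against eGFP. The dashed line is an even spread of the 1819 genes, and the bars run from 73 to 108 genes, with 107 in the first.

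The genes with the smallest p-values were mostly thinly counted, and none of them passed adjustment. Appl2 and Greb1l passed the count filter through the S45Y libraries alone and Slx1b through the eGFP libraries alone, so their separation is in part set by the filter. Appl2, an endosomal adaptor protein, had 6, 10 and 7 counts in eGFP next to 15, 20 and 26 in S45Y. All S45Y values lay above all eGFP values. As CPM, counts relative to the TMM-scaled library total, this was 77.9 ± 16.8 against 244 ± 32.5 (SD, n = 3 each), a log2 fold change of 1.63 with an interval from 0.70 to 2.60 and an edgeR adjusted p of 0.469. Adcy3, an adenylyl cyclase, had 16, 26 and 17 counts in eGFP next to 42, 41 and 25 in S45Y, a log2 fold change of 1.15 (0.49 to 1.82). The counts of its groups overlapped at 25 and 26, while the CPM values did not. Ccpg1, a receptor for the turnover of endoplasmic reticulum, had a log2 fold change of 1.0 (0.40 to 1.61), Trim44 one of 0.73 (0.28 to 1.18), Greb1l one of 1.65 (0.61 to 2.73) and Rps15, a ribosomal protein gene, one of 1.35 (0.49 to 2.24). In each of these 4 genes the groups did not overlap. In the downward direction the smallest p belonged to Mir6381, whose counts were 60, 80 and 51 in eGFP and 15, 36 and 32 in S45Y (log2 fold change -0.95, -1.51 to -0.41). It lies opposite an exon of Gbp2, with 24 shared bases. The others were 2210016L21Rik (-1.22), Slx1b, a subunit of a structure-specific endonuclease (-1.91), Taf5, a subunit of the general transcription factor TFIID (-0.43), Ybx1, an RNA-binding cold shock protein (-0.87), and Ezr, which ties membranes to actin (-0.75). The groups overlapped in Ybx1 alone of these, where S45Y replicate 3 had 42 counts against 40 in the lowest eGFP library. Taf5 was the one among these 12 genes with a mean of at least 100 counts, with 428, 445 and 415 counts in eGFP next to 184, 284 and 351 in S45Y.

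**Figure D2:**
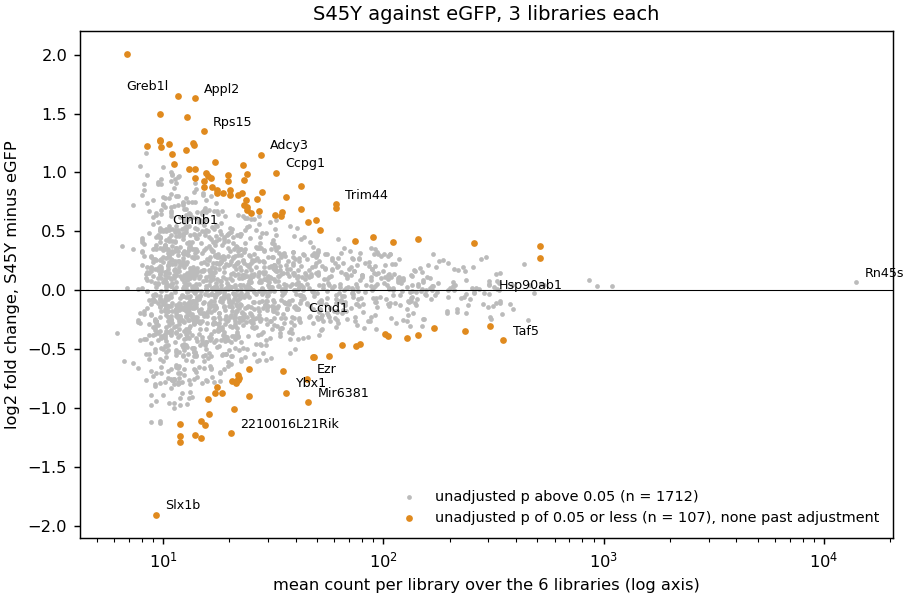
Log2 fold change (y axis, S45Y minus eGFP) of each tested gene against its mean count over the 6 libraries (x axis, log scale), with the 107 genes at an unadjusted p of 0.05 or less in orange. The estimates narrow from the left, where Slx1b reaches -1.91, to the right, where Hsp90ab1 and Rn45s lie near 0.

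Since no gene was called, the question the data can answer is how large a change they exclude. For every gene the bound of the 95% interval farther from 0 was taken as the largest change that its counts still allow. Over all 1819 genes the median of this value was 1.05 on the log2 scale, or 2.06-fold, and the median interval reached 0.768 to each side of the estimate. A rise of more than 2-fold was excluded in 1271 genes and a fall of more than 2-fold in 1321. Both were excluded in 834 genes (45.8%), and 239 genes (13.1%) had the whole interval within 1.5-fold. These are intervals of single genes, not adjusted for their number.

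How much was excluded followed the count. The 956 genes with a mean below 20 counts, 52.6% of those tested, had a median allowed change of 2.48-fold, with 114 (11.9%) held within 2-fold and 0 within 1.5-fold. With 20 to 50 counts (521 genes) the median was 1.80-fold and 382 genes (73.3%) were held within 2-fold. With 50 to 100 counts (173 genes) it was 1.52-fold, with 169 genes (97.7%) within 2-fold and 80 (46.2%) within 1.5-fold. The gain slowed from there. The 103 genes with 100 to 200 counts had a median of 1.37-fold, the 58 with 200 to 500 counts 1.30-fold and the 8 with 500 or more 1.25-fold. The smallest allowed change of any tested gene was 1.22-fold. The biological coefficient of variation, the spread between libraries beyond counting error, was 18.8%.

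**Figure D3:**
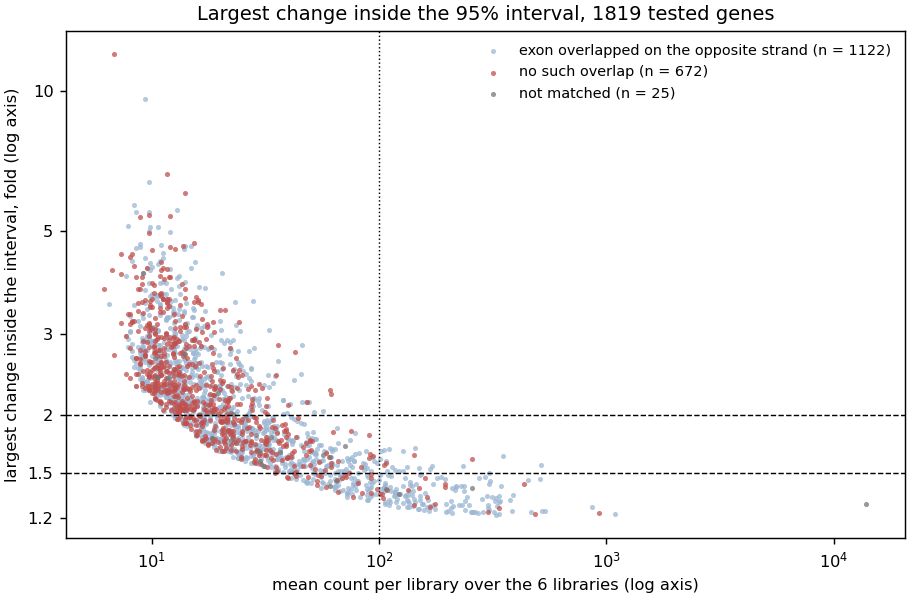
Largest change inside the 95% interval, in fold on a log axis (y axis), of each tested gene against its mean count over the 6 libraries (x axis, log scale), coloured by whether an exon is overlapped on the opposite strand. Every gene to the right of the dotted line at 100 counts lies below the dashed line at 2-fold, and most lie below that at 1.5-fold.

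A mean of at least 100 counts over the 6 libraries was taken as well counted. This held for 169 genes (9.29% of those tested), which carried 45.4% of all counts. All 169 were held within 2-fold, and 145 (85.8%) within 1.5-fold, which is called flat below. The median allowed change was 1.34-fold, with a range from 1.22-fold to 1.70-fold, and the largest estimate in size was 0.44 on the log2 scale. At an unadjusted p of 0.05 or less there were 13 of the 169 (7.69%, against 5.88% of all tested genes). In 25 of the 169 the groups did not overlap, a larger share than the 198 of 1819 (10.9%) over all tested genes. The gene with the widest bound was 2610020C07Rik, with 132, 140 and 134 counts in eGFP next to 162, 150 and 147 in S45Y (log2 fold change 0.44, 0.11 to 0.76, unadjusted p = 0.0088, edgeR adjusted p = 0.604). Its CPM values did not overlap between the groups. Of the well-counted genes, 143 had an exon overlapped on the opposite strand, 22 had none and 4 were not matched to the annotation. The flat share was 123 of 143 (86.0%) in the first class and 18 of 22 (81.8%) in the second.

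The flat genes that no opposite-strand exon touches include parts of the chaperone, splicing, translation and actin machinery. Basp1, a membrane-attached protein of the cell cortex that also acts in transcriptional repression (chromosome 15, 25363277 to 25413764 of mm10), was the most abundant, with 986, 1010 and 991 counts in eGFP next to 780, 688 and 1133 in S45Y. The S45Y values spread more widely and enclosed those of eGFP. At 10210 ± 689 CPM against 10440 ± 1699 (SD, n = 3 each) it had a log2 fold change of 0.03 with an interval from -0.23 to 0.29, so that a rise of more than 1.23-fold and a fall of more than 1.17-fold were excluded. Rrbp1, a ribosome-binding protein of the endoplasmic reticulum (chromosome 2, 143947395 to 144011263), had 468, 561 and 548 counts in eGFP next to 368, 386 and 570 in S45Y. Its groups overlapped, and its log2 fold change of -0.02 (-0.29 to 0.25) allowed no more than 1.22-fold, the tightest bound of the genes without an opposite exon. Hsp90ab1, the constitutive cytosolic heat shock protein (chromosome 17, 45567775 to 45573271), had 321, 377 and 301 counts in eGFP next to 250, 271 and 297 in S45Y. Every S45Y count was below every eGFP count, but after scaling to the library totals the groups overlapped, with 3397 ± 159 CPM against 3324 ± 186 (SD, n = 3 each). Its log2 fold change was -0.03, and a fall of more than 1.24-fold and a rise of more than 1.18-fold were excluded. Tmsb10, a thymosin that binds actin monomers, had 345, 392 and 334 counts in eGFP next to 237, 345 and 365 in S45Y, and its log2 fold change of 0.06 allowed 1.26-fold.

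Splicing and chromatin were each represented among these genes. Rbm39, a splicing factor, had 180, 186 and 174 counts in eGFP next to 138, 157 and 171 in S45Y, with a bound of 1.27-fold. Luc7l3, a component of the splicing machinery, had 145, 152 and 162 counts against 105, 137 and 157, with a bound of 1.28-fold. Hist1h1e, a linker histone, had 193, 199 and 173 counts in eGFP next to 147, 165 and 184 in S45Y. Of these 12 genes it varied least within the groups, at 1925 ± 44.9 CPM against 2011 ± 68.8 (SD, n = 3 each), and its bound was 1.29-fold. The remaining 5 were Asic1, an acid-sensing ion channel (1.32-fold), Eif3a, a subunit of an initiation factor (1.33-fold), Rpl4, a ribosomal protein (1.35-fold), St13, a cochaperone (1.35-fold), and Ptma, the nuclear protein prothymosin (1.38-fold). Reads of Hist1h1e, Rpl4, Ptma and Tmsb10 can also match near-identical copies elsewhere in the genome, so counts of these are less certain.

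**Figure D4:**
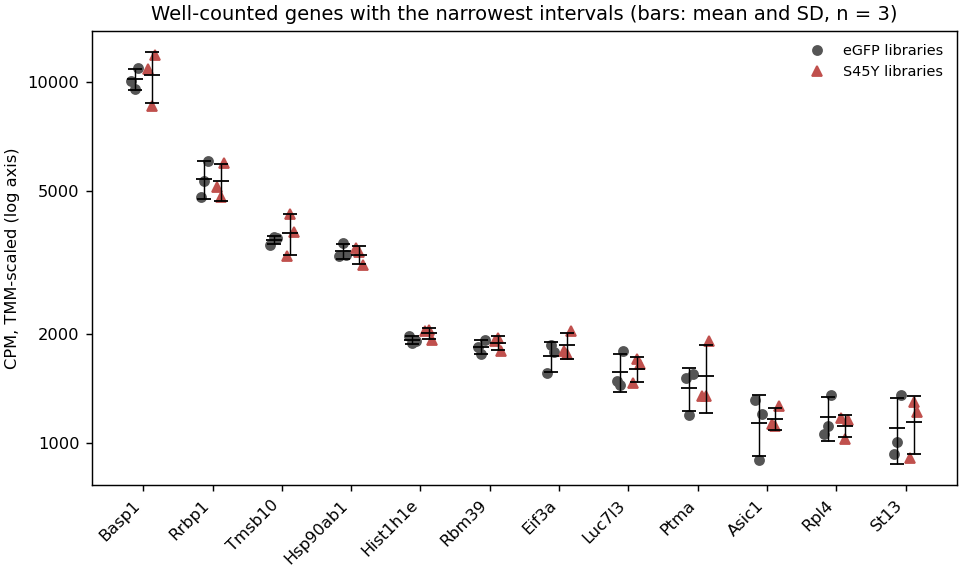
CPM on a log axis (y axis) of the 12 flat genes without an opposite-strand exon that had the tightest bounds, with 1 point per library and the mean and SD (n = 3) of each group. The eGFP and S45Y points overlap in each of the 12 genes, from Basp1 (10210 CPM in eGFP) to St13 (1099 CPM in eGFP).

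Bounds as tight were found in genes that an exon on the opposite strand does overlap, where the counts may belong to either gene. Acat3, named for an acetyl-CoA acetyltransferase, had 1095, 1246 and 1179 counts in eGFP next to 935, 1059 and 1027 in S45Y, and a bound of 1.22-fold. It shares 571 exon bases with Tcp1, a subunit of the cytosolic chaperonin. Lypd1 (opposite Gpr39, 1202 bases) and Mrps25 (opposite Nr2c2, 4590 bases) had bounds of 1.22-fold. Sphk2, a sphingosine kinase opposite Dbp, had CPM values of 2312 ± 37.6 in eGFP against 2316 ± 31.4 in S45Y (SD, n = 3 each) and a bound of 1.23-fold, as had 4930513N10Rik and Mms19. In CPM the groups overlapped in all 6, while the unscaled counts of Acat3 and of Mrps25 did not.

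The bounds rest on a spread that edgeR shares among genes. When each gene kept only its own spread over the 6 libraries, an alternative chosen after the data were seen, 104 of the 145 genes remained within 1.5-fold. The ribosomal RNA precursor Rn45s was among those that did not. It had 14566, 12265 and 17459 counts in eGFP next to 13752, 9786 and 15941 in S45Y, and its bound was 1.29-fold with the shared spread and 1.82-fold with its own. St13 (1.60-fold), Ptma (1.58-fold) and Mrps25 (1.51-fold) also passed 1.5-fold. Of the 834 genes held within 2-fold with the shared spread, 593 remained so with their own. Among genes described below, Ccnd1 (2.12-fold), Gsk3a (2.14-fold), Usp18 (2.34-fold), Mki67 (2.03-fold) and Top2a (2.12-fold) then passed 2-fold. The bound of Vegfa narrowed from 1.68-fold to 1.46-fold. Bounds given below are with the shared spread unless another is named. Over 16 alternatives, the own spread among them but neither the 99% interval nor the adjusted equivalence p, 85 of the 145 genes were flat in each. Of these 85, 10 had no opposite-strand exon, namely Asic1, Basp1, Eif3a, Hist1h1e, Hsp90ab1, Luc7l3, Orc3, Rbm39, Rrbp1 and Tmsb10, of which Orc3, a subunit of the origin recognition complex, was named after its values were seen.

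Wnt target genes were too thinly counted for most to be tested. Of 28 genes on a list of such targets, 12 had no count in any of the 6 libraries and 3 were tested, with a median log2 fold change of -0.14 against 0.02 over all tested genes, and 0 of the 3 had an unadjusted p of 0.05 or less. Ccnd1, which drives entry into the cell cycle, had 54, 65 and 27 counts in eGFP next to 36, 30 and 37 in S45Y. All S45Y counts lay above the lowest eGFP library and below the other eGFP libraries, so the groups overlapped. The log2 fold change was -0.23 (-0.79 to 0.32, edgeR adjusted p = 0.989), so that a rise of more than 1.25-fold and a fall of more than 1.73-fold were excluded. These bounds rest on the shared spread. With its own spread the interval of Ccnd1 ran from -1.085 to 0.771, and its bound was 2.12-fold. Ccnd1 shares 1100 exon bases with LTO1 on the opposite strand. Vegfa, an angiogenic growth factor, had 36, 32 and 40 counts against 23, 27 and 33, and excluded a rise of more than 1.37-fold. Fosl1, a subunit of the AP-1 factor, had a log2 fold change of 0.32 and allowed a rise of up to 2.34-fold. Of its 2033 exon bases, 1163 are shared with Ccdc85b on the opposite strand. Among the untested targets, Axin2, a feedback inhibitor of the pathway, had 0 counts in each eGFP library and 0, 1 and 1 in S45Y, and Lgr5, a receptor for R-spondins, had 0 in all 6. For a count of 0, up to 3 counts per library cannot be told from 0 by counting error alone, so both groups of Axin2 and Lgr5 are at or under this floor and no fold change is given. Myc had 5, 7 and 4 counts in eGFP next to 9, 7 and 9 in S45Y, and Cd44, a cell surface receptor for hyaluronan, had 4, 7 and 0 against 6, 4 and 6. Both were under the count filter.

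The components of the pathway itself were also thin. Of 34 genes on that list, 4 were tested, with a median log2 fold change of 0.41, and 0 had an unadjusted p of 0.05 or less. Gsk3a, a kinase of the degradation complex, had 52, 76 and 36 counts in eGFP next to 56, 58 and 54 in S45Y. In CPM the S45Y range (567 to 779) overlapped that of eGFP (398 to 722), and a rise of more than 1.73-fold was excluded. Gsk3a shares 820 exon bases with 9130221H12Rik on the opposite strand. Ep300, a histone acetyltransferase that β-catenin recruits, had 13, 5 and 14 counts against 17, 11 and 16, with an interval of the log2 fold change from -0.28 to 1.68. Of 18 adherens junction genes 8 were tested (median 0.25), none of them held within 2-fold. Vcl, the actin-binding protein vinculin, had the lowest estimate of them, with 27, 24 and 15 counts in eGFP next to 5, 10 and 8 in S45Y. All S45Y counts were lower, with a log2 fold change of -1.26 (-2.21 to -0.33, unadjusted p = 0.00778, edgeR adjusted p = 0.604). Vcl shares 2090 exon bases with Ap3m1 on the opposite strand. Ctnnd1, a catenin that steadies cadherins at the membrane, had 14, 12 and 11 counts against 18, 8 and 12, and Tjp1, a scaffold of tight junctions, 19, 14 and 5 against 7, 12 and 18, both with overlapping groups.

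**Figure D5:**
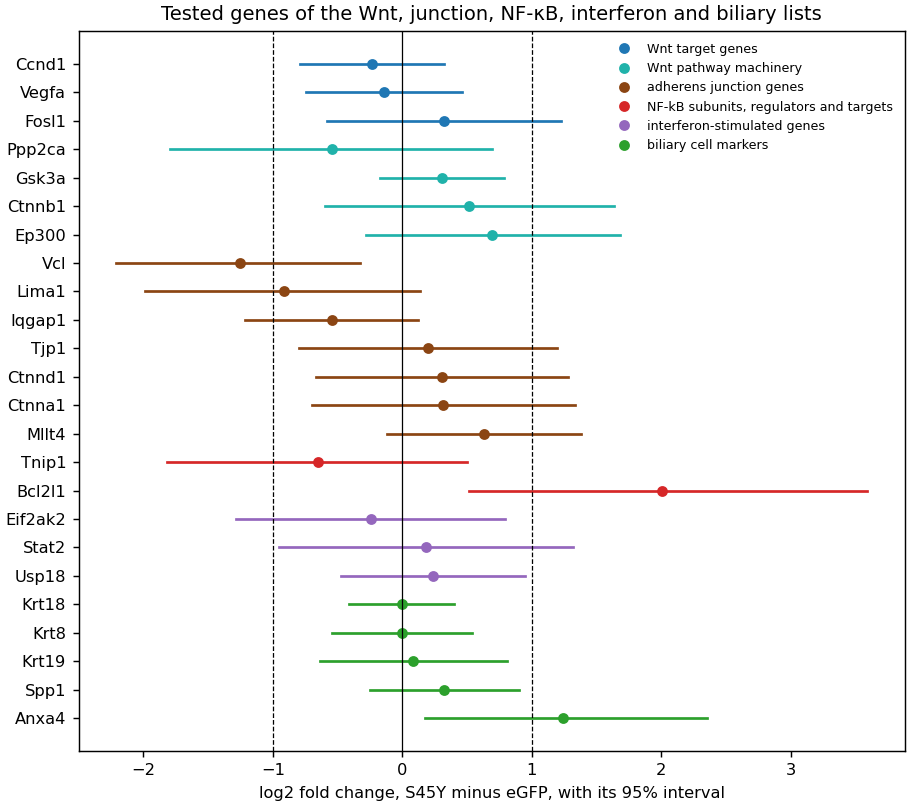
Log2 fold change (x axis, S45Y minus eGFP) of every tested member of 6 gene lists (y axis, 1 gene per line), as a point with its 95% interval. Dashed lines mark 2-fold in each direction. Most intervals cross 0, that of Bcl2l1 is the widest, and those of Krt18 and Krt8 stay within 2-fold.

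Most genes of the NF-κB pathway, on which the study centres, had too few counts in these libraries to be tested. Of 41 subunits, regulators and targets, 7 had no count, 5 reached 10 counts in a library and 2 were tested, Bcl2l1 and Tnip1, with estimates in opposite directions. Rela, which encodes p65, had 0, 0 and 1 counts in eGFP next to 1, 4 and 0 in S45Y, and Nfkb1 had 2, 3 and 6 against 1, 1 and 4. The groups overlapped in both genes. Of the chemokines, Cxcl5 had 5, 3 and 0 counts against 2, 6 and 5, and Ccl2 had 4, 8 and 0 against 0, 0 and 0. Both were under the count filter and no bound is given for them. Bcl2l1, which protects from apoptosis, had 0, 2 and 7 counts in eGFP next to 9, 9 and 14 in S45Y. The groups did not overlap, and the log2 fold change of 2.0 (0.52 to 3.59, unadjusted p = 0.00701, edgeR adjusted p = 0.604) was the largest of all tested genes and also the one with the widest bound, 12.0-fold. It passed the count filter through the S45Y libraries alone, where it is high, so its separation and rank are in part set by that choice. Tnip1, an inhibitor of NF-κB signalling, had 15, 6 and 17 counts against 4, 4 and 13 and overlapping groups. Of 35 interferon-stimulated genes 3 were tested (median 0.18), and Usp18, which removes the modifier Isg15 from proteins, had 15, 31 and 20 counts in eGFP next to 25, 14 and 26 in S45Y and excluded a rise of more than 1.93-fold. The summed CPM of that list was 1180 to 1520 in eGFP and 959 to 1380 in S45Y.

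Of the keratins that mark bile duct epithelium, Krt18, Krt8 and Krt19 were tested and Krt7 was under the count filter, with 1, 7 and 2 counts against 0, 0 and 4. Krt18 had 97, 82 and 70 counts in eGFP next to 54, 64 and 93 in S45Y, with a log2 fold change of 0.00 (-0.41 to 0.40) and a bound of 1.33-fold. Krt8, its partner, had 56, 32 and 52 counts against 39, 39 and 40, and a bound of 1.46-fold. Krt19 had 25, 16 and 24 counts against 17, 14 and 28, a log2 fold change of 0.09 (-0.64 to 0.81) and a bound of 1.75-fold. The groups overlapped in these 3 genes. Anxa4, a membrane-binding annexin, had 4, 9 and 8 counts in eGFP next to 11, 10 and 22 in S45Y without overlap (log2 fold change 1.24, 0.17 to 2.35, edgeR adjusted p = 0.792), and it was the 1 of 5 tested biliary markers with an unadjusted p of 0.05 or less (5.88% of all tested genes). Anxa4 passed the count filter through the S45Y libraries alone. Of the 20 markers on that list 7 had no count. Cftr, the apical chloride channel, and Epcam, an epithelial adhesion molecule, were among these, and Sox9 had at most 2 counts in a library. Most markers of other liver cells had no count, with 7 of 10 hepatocyte markers, 7 of 11 stellate cell and fibroblast markers, 5 of 8 endothelial markers and 7 of 10 immune markers at 0. Cd68, a lysosomal protein of macrophages, was the 1 such marker that could be tested, with 13, 13 and 3 counts in eGFP next to 6, 5 and 12 in S45Y and overlapping groups (log2 fold change -0.09, -1.30 to 1.12). The summed CPM of these lists in eGFP and S45Y was 9.49 to 44.2 and 10.5 to 99.7 for hepatocytes, 51.2 to 114 and 62.3 to 94.5 for stellate cells and fibroblasts, 33.1 to 71.7 and 0 to 31.5 for endothelium, and 33.1 to 143 and 74.7 to 168 for immune cells. The summed CPM of the biliary list was 1810 to 2610 in eGFP and 2170 to 2870 in S45Y.

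For protein synthesis, of 79 cytosolic ribosomal protein genes 30 were tested, with a median log2 fold change of 0.11. A rise of more than 2-fold was excluded in 20 of the 30 (1271 of 1819 over all tested genes), 13 were held within 2-fold in both directions (45.8% over all tested genes), and Rps15 and Rpl41 (0.72, 0.04 to 1.41), 2 of the 30, had an unadjusted p of 0.05 or less, against 5.88% over all tested genes. Of 34 translation factors 15 were tested (median 0.16), and 9 were held within 2-fold and 6 within 1.5-fold. Eif5b had 138, 133 and 156 counts against 118, 130 and 158, with a bound of 1.40-fold, and shares 1643 exon bases with Rev1 on the opposite strand. Eif4g2, a scaffold for initiation, was the 1 of the 15 with an unadjusted p of 0.05 or less, against 5.88% of all tested genes (log2 fold change 0.83, 0.04 to 1.63). Of 30 heat shock proteins and chaperones 13 were tested (median -0.03) and 10 were held within 2-fold, with 0 at that unadjusted p. Calr, a chaperone of the endoplasmic reticulum, had a bound of 1.48-fold and Hsp90b1, the HSP90 form of that compartment, one of 1.59-fold. All 55 splicing and RNA-binding factors had counts and 28 were tested (median 0.00), of which Srsf11 (-0.57) and Sf3b2 (0.64) had an unadjusted p of 0.05 or less in opposite directions (2 of 28, against 5.88% over all tested genes). Hnrnpu, which binds nascent transcripts, had 161, 139 and 142 counts against 119, 132 and 117 and a bound of 1.26-fold. Hnrnpu shares 804 exon bases with Cox20 on the opposite strand.

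Of 36 cytoskeletal genes 19 were tested (median 0.16), and 3 had an unadjusted p of 0.05 or less (5.88% of all tested genes). Myh9, a heavy chain of nonmuscle myosin, had 158, 137 and 165 counts in eGFP next to 132, 134 and 169 in S45Y, with a bound of 1.39-fold, and the crosslinker Plec had one of 1.55-fold. Tpm1, a tropomyosin (log2 fold change 1.0, 0.16 to 1.84), and Myl6, a myosin light chain (1.27, 0.15 to 2.43), were higher in S45Y without overlap, and Ezr was lower. Myl6 passed the count filter through the S45Y libraries alone. The edgeR adjusted p-values of Tpm1, Myl6 and Ezr were 0.792, 0.792 and 0.604. Of 36 cell cycle genes 7 were tested (median -0.11), and 0 had an unadjusted p of 0.05 or less. The proliferation marker Mki67 had 102, 72 and 92 counts against 95, 96 and 85 and a bound of 1.62-fold. Ccna2, a cyclin of S phase, had 127, 137 and 140 against 72, 108 and 101, with a fall of more than 1.55-fold excluded, and shares 510 exon bases with Exosc9 on the opposite strand. Top2a, a topoisomerase of dividing cells, had a bound of 1.53-fold.

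Of 37 chromatin regulators 19 were tested (median -0.05). Arid2, a subunit of a SWI/SNF complex, had 31, 54 and 53 counts in eGFP next to 23, 23 and 26 in S45Y, with a log2 fold change of -0.69 (-1.29 to -0.09, unadjusted p = 0.0242, edgeR adjusted p = 0.792). Its groups overlapped in CPM. Ncor1, a corepressor, had 130, 131 and 111 counts against 97, 127 and 103 and a bound of 1.34-fold, and Dnmt1, the maintenance DNA methyltransferase, one of 1.47-fold. Of 75 nuclear-encoded respiratory chain genes 5 were tested (median -0.26) and of 15 glycolytic genes 5 (median 0.07), with 0 of each at that unadjusted p. Among them Atp5f1, a subunit of ATP synthase, had a bound of 1.46-fold, and the kinase Pfkp one of 1.44-fold. On the opposite strand Atp5f1 shares 337 exon bases with Wdr77, and Pfkp 748 with Pitrm1.

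The list of nuclear noncoding RNAs includes the ribosomal RNA precursor Rn45s, and 7 of its 14 members were tested (median -0.02). The list held 89634 counts over the 6 libraries, of which Rn45s alone had 44290 in eGFP and 39479 in S45Y. Malat1 had 267, 309 and 264 counts in eGFP next to 179, 220 and 304 in S45Y, with overlapping groups, a log2 fold change of -0.02 (-0.31 to 0.26) and a bound of 1.24-fold. Rmrp, the RNA of an endoribonuclease, had 183, 171 and 169 counts against 98, 138 and 218 and a bound of 1.27-fold with the shared spread. Tsix, the antisense partner of Xist, had 523, 537 and 426 counts in eGFP next to 558, 480 and 564 in S45Y, and in CPM its groups did not overlap (log2 fold change 0.37, 0.11 to 0.64, edgeR adjusted p = 0.604). It shares 1980 exon bases with Xist. Of 15 reference genes 4 were tested (median 0.31), and beside Hsp90ab1 they included Actb, with 48, 32 and 37 counts against 32, 27 and 57 and a bound of 1.72-fold.

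The S45Y libraries were also set against the siRNA libraries by testing whether the change from eGFP to S45Y differed from the change between control siRNA (si-CTL) and siRNA against Ctnnb1 (si-Ctnnb1). Of 2996 genes tested over 12 libraries, 16 (0.534%) had an adjusted p below 0.05 for this difference in edgeR, and 296 had an unadjusted p of 0.05 or less. The siRNA libraries were harvested after 24 hr in place of 48 hr and with another reagent, so the protein, the time and the transfection cannot be told apart in this difference. Map3k12, a kinase of stress signalling, had a log2 fold change of 0.27 in S45Y and -0.90 in si-Ctnnb1, each from its own 6 libraries, and the fit of all 12 gave a difference of 1.11 (standard error 0.16, edgeR adjusted p = 1.76e-06). Precision differed between the comparisons. On the 1804 genes tested in both, the median standard error of the log2 fold change was 0.384 for S45Y against eGFP and 0.239 for si-Ctnnb1 against si-CTL.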

How the data were processed

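RNA of the SMCC line was measured as 12 libraries, and the 3 S45Y and 3 eGFP libraries were used for the comparison described here. According to the submitters' processing notes the authors used Trimmomatic 0.38, HISAT2 2.1.0 and HTSeq 0.11.2 with mm10, and they deposited counts, whole numbers per gene symbol without normalization. The annotation, the strand setting and the read type are not given in the sources used here. Groups follow the labels, and every sample column was used.

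The fit was made with edgeR 4.0.16 (R 4.3.3). filterByExpr was used at a minimum count of 10 and a minimum total of 15, and the kept genes were scaled by TMM and tested two-sided with the quasi-likelihood test, with Benjamini-Hochberg adjustment over all tested genes. The methods of the study name DESeq2, which was run as an alternative (version 1.42.0), as was limma 3.58.1 (voom). The study reported higher and lower genes for this comparison at a cutoff on both the p-value and the size of the fold change. No fold change cutoff was applied in the counts of genes given here, so they are not comparable with those of the study. Intervals are the fitted coefficient, without shrinkage, plus and minus the t quantile (75.1 degrees of freedom) times its standard error. The reported fold changes use a prior count of 0.125. The libraries held 91468 to 122304 counts each, and intervals cover the spread between these libraries only. No pair of libraries agreed within sampling noise, since chi-square per degree of freedom was 2.09 to 3.28.

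Of the 24421 symbols 24044 (98.5%) were matched to GENCODE M21 on mm10, 668 of them through RefSeq synonyms, for positions and for exons overlapping on the opposite strand. Named are Ctnnb1 and the genes the study names, Axin2 and Lgr5, the 6 genes with the smallest p in each direction, the 12 and 6 well-counted genes with the tightest bounds without and with an opposite exon, the well-counted gene with the widest bound, and in each of 21 lists the members at an unadjusted p of 0.05 or less and the up to 3 with the tightest bounds. The members and lists were chosen with earlier results of these data known. Alternatives were other scalings, filters, tests and interval levels, blocking by replicate number, a fit to the 12 libraries together, and leaving out single libraries. Scripts were tested on simulated data. Results for some genes are not reported here.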

Additional observations from a re-analysis of the deposited data

Results flagged for a closer look

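In 12 genes described here, the change from eGFP to S45Y differed from the change from si-CTL to si-Ctnnb1 by a test of the difference itself (edgeR quasi-likelihood test over 12 libraries, Benjamini-Hochberg adjusted p below 0.05). Values are the log2 fold change in activation (S45Y minus eGFP), that in silencing (si-Ctnnb1 minus si-CTL) and the difference, activation minus silencing. Each fold change comes from the fit of its own 6 libraries and the difference from 1 fit of all 12, so the difference is not exactly that of the printed values. None of the 12 passed adjustment in activation alone. The groups also differ in harvest time, reagent and depth, whose part was not tested.

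In 7 genes the difference was positive. It was 1.52 for Mir6236 (0.40 in activation, -1.18 in silencing, adjusted p = 1.64e-07) and 1.11 for Map3k12 (0.27 and -0.90). Mir6236 had 238, 254 and 239 counts in eGFP, 278, 227 and 305 in S45Y, 244, 237 and 237 in si-CTL and 123, 108 and 117 in si-Ctnnb1. For Rn45s the difference of 1.0 (0.07 and -1.0) came from silencing, while the activation estimate lay near 0. It was 2.37 for Nsun5, a methyltransferase of ribosomal RNA (1.06 and -1.38), and 1.33 for Srpk2, a kinase of splicing factors (0.41 and -0.98). Lars2, a mitochondrial leucyl-tRNA synthetase, had a difference of 0.74 (0.22 and -0.58), and Tsix one of 0.63 (0.37 and -0.32).

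In the other 5 it was negative, with -0.70 for E230016M11Rik (-0.31 and 0.33), -0.82 for Dnajc19 (-0.21 and 0.55), -0.77 for Cand2 (-0.13 and 0.58), -0.63 for Sla2 (-0.09 and 0.48) and -0.75 for Loxl3 (-0.40 and 0.29). E230016M11Rik, Map3k12, Mir6236 and Rn45s were called under each of 15 alternatives, and the other 8 lost the call under 1 (Nsun5, without S45Y replicate 1) to 13 of them (Loxl3). Prrc2a (2.99) and Slc25a26 (-3.72) were also called for the difference, but were under the count filter for S45Y against eGFP.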

How the results depend on the processing

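No alternative gave a gene with an adjusted p below 0.05 for S45Y against eGFP. The number at an unadjusted p of 0.05 or less, 107, was 58 with DESeq2, 362 without the count filter (176 higher and 186 lower, against 66 and 41), and 92 to 140 when a library was left out. The median allowed change (log2), 1.05 in the report, was 1.18 with DESeq2, 1.02 with limma-voom, 4.29 without the filter, 1 with a mean of at least 10 counts, 0.967 in a fit of all 12 libraries, 1.32 with 99% intervals, 1.12 with each gene's own spread, and 1.19 to 1.26 with a library left out. For well-counted genes it was 0.427, and 0.466 with DESeq2, 0.442 without TMM, 0.384 with all 12 libraries, 0.534 with 99% intervals, 0.499 with the own spread and 0.456 to 0.501 with a library left out. Held within 2-fold were 834 genes, 532 with 99% intervals and 663 to 736 with a library left out. Well counted and within 1.5-fold were 145, 91 by an adjusted equivalence p below 0.05, 107 with the own spread and 124 to 147 with a library left out. The genes called for the difference from silencing, 16 in all, were 5 without S45Y replicate 1, 8 without si-CTL replicate 1, 8 without si-Ctnnb1 replicate 3 and up to 22 otherwise. The cause of these shifts was not tested.

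The replicate numbers did not pair the libraries. Deviations from the group means correlated at -0.002, 0.027 and 0.025 for same-numbered libraries and at -0.031 to 0.007 for the others, and each of replicates 2 and 3 correlated best with its own number. With the replicate number as a block, 0 genes passed adjustment, 103 passed unadjusted, 826 were held within 2-fold, the log2 fold change of Ctnnb1 was 0.42 and 15 genes were called for the difference from silencing. Among genes with a mean below 20 counts per library, the interval of 0 genes lay within 1.5-fold.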
